A study of Mus musculus with 20 samples.

Results

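The genes of the tumour necrosis factor (TNF) ligand and receptor superfamily, with the TNF receptor-associated factors (TRAFs), were followed through a time course of chromatin accessibility in mouse myeloid cells. Members were the peaks whose deposited nearest gene was named Tnfsf or Tnfrsf, or was Tnf, Lta, Ltb, Fas, Fasl, Ltbr, Cd40, Cd27, Ngfr or one of Traf1 to Traf7. They came to 1219 of the 504887 peaks in 10 peak lists. When overlapping peaks of the different lists were joined, they formed 204 of 88351 regions. The members belonged to 45 genes, of which 16 encode ligands, 22 receptors and 7 TRAFs. Tnfrsf4, Tnfrsf11b, Tnfrsf26 and Tnfsf13os also match the names and had no peak in the lists analysed here.

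The cell line, ER-Hoxa9-Lys-GFP (strain C57BL/6), was cultured in RPMI with FBS and stem cell factor conditioned medium. In this kind of line, the differentiation block by Hoxa9 depends on an estrogen-binding domain, and the series follows a myeloid differentiation program started by estradiol (E2) withdrawal. Open DNA was read out by ATAC-seq, which uses the Tn5 transposase to put sequencing adapters where chromatin is accessible. The 0 h cells were kept with E2. The other cells had been washed in PBS and moved to medium without E2 for 4, 8, 12, 24, 36, 48, 72, 96 or 120 h. All groups carry the ER-Hoxa9 construct and the Lys-GFP reporter, and all derive from this cell system. The labels name 2 samples for each of the 10 times, 20 in all, and describe nuclei split into 2 transposition reactions, so the samples of a time may be technical replicates. The deposited peaks come as 1 list for each time, so no spread between replicates and no p-value can be given. Intervals below are 95% Wilson intervals, which cover counting error only, and a peak that is not listed is not shown to be closed.

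TNF superfamily ligands are mostly membrane proteins that assemble in groups of 3 and can be shed, and each binds one or a few cysteine-rich receptors. Some receptors carry a death domain that recruits adaptors such as Tradd and Fadd, while others bind TRAF proteins directly, and both routes can activate NF-kB and MAP kinases or, through caspase 8, cell death. In the myeloid lineage, TNF is a main product of activated cells, the TNF receptors Tnfrsf1a and Tnfrsf1b are on their surface, and Fas and Tnfsf10 (TRAIL) are known for their part in the turnover of neutrophils.

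The promoter windows that the results turn on are shown first, as the 250 bases before the RefSeq transcription start site (TSS) in GRCm38.p6, 5′ to 3′ on the gene's strand. Tnf (chr17:35202008-35202257, minus strand) and Tnfrsf1b (chr4:145246871-145247120, minus strand) had a promoter peak in all 10 lists. Tnfrsf1a (chr6:125349473-125349722, plus strand) had one in 5 lists and neither at 0 h nor at 120 h, while Tnfrsf18 (chr4:156026072-156026321, plus strand) and Tnfrsf12a (chr17:23677450-23677699, minus strand) had one until 72 h and 96 h. Capitals mark matches, on either strand, to the PU.1-like ETS word GAGGAAG and to the TATA word TATAAA.
Tnf: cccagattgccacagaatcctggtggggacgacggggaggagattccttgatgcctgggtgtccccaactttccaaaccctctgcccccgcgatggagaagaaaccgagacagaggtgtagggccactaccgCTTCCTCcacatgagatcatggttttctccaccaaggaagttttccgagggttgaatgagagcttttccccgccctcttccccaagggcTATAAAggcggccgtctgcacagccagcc
Tnfrsf1b: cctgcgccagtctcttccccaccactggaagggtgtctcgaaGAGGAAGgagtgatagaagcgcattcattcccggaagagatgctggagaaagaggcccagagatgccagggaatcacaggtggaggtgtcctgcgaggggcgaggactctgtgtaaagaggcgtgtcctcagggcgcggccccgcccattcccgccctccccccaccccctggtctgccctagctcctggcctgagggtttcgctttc
Tnfrsf1a: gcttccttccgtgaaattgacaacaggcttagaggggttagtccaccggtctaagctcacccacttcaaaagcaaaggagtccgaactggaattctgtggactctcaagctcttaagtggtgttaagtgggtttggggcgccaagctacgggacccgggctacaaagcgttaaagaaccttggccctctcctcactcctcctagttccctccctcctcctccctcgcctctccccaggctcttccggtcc
Tnfrsf18: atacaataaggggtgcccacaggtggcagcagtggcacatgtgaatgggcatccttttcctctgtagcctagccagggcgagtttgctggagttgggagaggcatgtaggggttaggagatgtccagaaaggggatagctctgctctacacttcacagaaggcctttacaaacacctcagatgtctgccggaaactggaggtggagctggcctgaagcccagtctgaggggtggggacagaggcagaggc
Tnfrsf12a: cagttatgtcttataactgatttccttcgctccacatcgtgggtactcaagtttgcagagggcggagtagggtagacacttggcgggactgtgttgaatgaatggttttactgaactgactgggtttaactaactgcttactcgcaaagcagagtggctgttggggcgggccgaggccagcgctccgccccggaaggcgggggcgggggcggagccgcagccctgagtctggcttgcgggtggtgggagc
In Tnf, the ETS word lay 118 to 112 bases and the TATA word 29 to 24 bases before the TSS. In Tnfrsf1b, the ETS word lay 208 to 202 bases before it. The windows of Tnfrsf1a, Tnfrsf18 and Tnfrsf12a held neither word. None of the windows shown held a match to the AP-1 word TGANTCA, the C/EBP word TTGCNNCAA or the NF-kB consensus. Among other members whose TSS lay in a peak in all 10 lists, Traf2, Traf6 and Traf7 held the ETS word. Ltbr, Tnfrsf21, Tnfsf14, Tnfsfm13, Traf3 and Traf5 did not. Where the TSS lay in no peak, Ltb, Tnfsf18 and Tnfrsf25 held it and the rest did not. The word thus stood in windows of both kinds. The short ETS core GGAA, on either strand, is present in 93.4% of all windows and is not marked. Of all 32851 windows of the same length in the RefSeq table, 10.6% held the ETS word, 12.4% the TATA word, 6.75% the AP-1 word, 1.74% the C/EBP word and 5.0% the NF-kB consensus. A match describes these letters alone, and the lack of one says nothing of a factor's binding.

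The member genes had fewer peaks late in the course, as did the lists as a whole. The 10 lists, in order of time, held 135, 131, 130, 145, 153, 130, 132, 113, 86 and 64 member peaks. The count was highest at 24 h and lowest at 120 h. Each list was also cut to its 23620 widest peaks, as many as the shortest list holds. Members then had 61 peaks at 0 h and 64 at 120 h. Since the cut fixes the length of the lists, these counts restate the members' share and cannot test loss at these genes. The cut kept peaks of at least 522 bp at 0 h and of at least 150 bp at 120 h. The lists themselves shrank from 55261 peaks at 0 h and 62559 at 24 h to 23620 at 120 h, and the members' share stayed between 0.218% and 0.289% of a list. At 0 h this share was 0.244% (0.206 to 0.289%) and at 120 h it was 0.271% (0.212 to 0.346%), so the intervals overlapped. A peak within 1000 bp of the deposited TSS is called a promoter peak here, and any other a distal peak. The promoter peaks numbered 25, 24, 23, 25, 24, 24, 23, 24, 21 and 17 over the 10 lists, and the distal peaks 110, 107, 107, 120, 129, 106, 109, 89, 65 and 47.

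**Figure D1:**
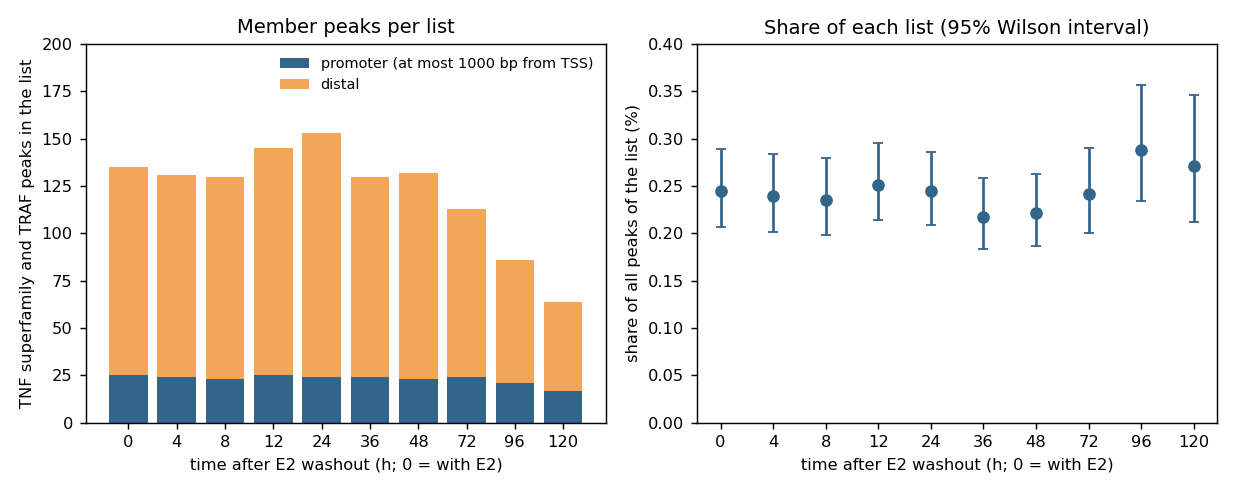
Left, number of promoter (blue) and distal (orange) peaks of the member genes in each list, by hours after E2 washout. Right, the same peaks as a percentage of all peaks of that list with 95% Wilson intervals. The count falls from 135 to 64 while the share stays between 0.218% and 0.289%.

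A larger share of distal peaks lasted to 120 h in the member genes than over all genes, while the promoter peaks as a whole lasted about as often as elsewhere. The 120 h list held 68.0% as many member promoter peaks as the 0 h list, against 84.5% for all promoter peaks. For distal peaks the values were 42.7% for members and 32.8% for all. Of the 25 member promoter peaks of the 0 h list, 18 (72.0%, 52.4 to 85.7%) were overlapped by at least 1 bp by a peak of the 120 h list, against 75.0% of all 0 h promoter peaks. Of the 110 distal ones, 35 (31.8%, 23.9 to 41.0%) were kept in this sense, against 22.5% of all 0 h distal peaks. The background lay inside the interval for promoters and below the interval for distal peaks. By role, the distal shares were 23.8% (13.5 to 38.5%) for ligands, 37.5% (25.2 to 51.6%) for receptors and 35.0% (18.1 to 56.7%) for TRAFs. The ligand and TRAF intervals included the background, and the receptor interval lay above it. Tnfrsf1b and Tnfrsf8 had 8 distal regions listed at all 10 times, and the kept share without this pair was not computed. The 64 member peaks at 120 h included 12 (18.8%, 11.1 to 30.0%) with no 0 h peak under them, and over all peaks this share was 25.03%.

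The regions were built from the same peaks, so their counts are not independent of the kept shares above. A region is called constant when it was listed at all 10 times. Constant regions made up 41 of the 204 member regions (20.1%, 15.2 to 26.1%), against 13.8% of all regions. Among the 29 promoter regions, 12 (41.4%) were constant, next to a background of 41.3%. Among the 175 distal regions, 29 (16.6%, 11.8 to 22.8%) were constant, next to 9.13%. The receptors held 15 of these distal regions, the ligands 8 and the TRAFs 6. As shares of their own distal regions these were 16.9% (10.5 to 26.0%), 13.3% (6.91 to 24.2%) and 23.1% (11.0 to 42.1%). The ligand interval included the 9.13% of all distal regions. Tnfrsf1b and its neighbour Tnfrsf8 alone supplied 8 constant ones, out of their 23 distal regions. Without this pair the member share was 13.8% (9.22 to 20.2%). Member distal regions lay nearer to their TSS, with a median distance of 16074 bp against 23027 bp, and within 50 kb of the TSS the constant shares were 17.4% (12.3 to 24.2%) for members and 9.64% for all.

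Few member regions were gained, and the lost ones made up a share near that of all regions. A region is called gained when it was absent at 0, 4 and 8 h and listed at 72, 96 and 120 h, and lost in the reverse case. Gained regions numbered 4 of 204 (1.96%, 0.765 to 4.93%), against 2.38% of all regions. Lost regions numbered 20 (9.80%, 6.44 to 14.7%), against 12.5%. The distal ones among them were 18 of 175 (10.3%, 6.61 to 15.7%), against 14.0%. The last peak of a lost region was at 48 h in 8 regions, at 24 h in 6, at 12 h in 5 and at 8 h in 1. Transient regions, absent at 0, 4, 96 and 120 h and listed in at least 2 consecutive lists between 12 and 72 h, numbered 8 (3.92%, 2.00 to 7.55%), against 9.65% of all regions. All 8 were distal (4.57% of 175, 2.33 to 8.76%), against 10.9% of all distal regions. The gained and lost counts moved with the definition, and the background moved with them. Without the 120 h list, 7 regions were gained (3.45%, against 3.76% of all). With 2 early and 2 late lists, 48 were lost (23.5%, against 27.6%), and in lists cut to their widest peaks 9 were lost (7.26%, against 6.69%). The cut lists held 2 transient regions (1.61%, against 4.86%). In the lists as deposited, the share of transient regions was below the background and its interval did not reach it. The other 131 regions had mixed patterns, and 66 of the 204 (32.4%) went off the list and came back, close to the 33.3% of all regions.

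Fewer receptor genes had a promoter peak at 120 h than at 0 h, while the numbers of ligand and TRAF genes with one were equal at both times. Of the 45 genes, 26 had a promoter peak in at least 1 list and 12 of these (46.2%, 28.8 to 64.5%) had one in all 10 lists, against 42.0% of all genes with any promoter peak. Those 12 were Tnf, Tnfsf12, Tnfsf14, Ltbr, Tnfrsf1b, Tnfrsf21, Tnfrsf22, Traf2, Traf3, Traf5, Traf6 and Traf7. By role, they were 3 of 7 ligand genes, 4 of 13 receptor genes and 5 of 6 TRAF genes. From 0 h to 120 h the number of genes with a promoter peak went from 6 to 6 in the ligands, from 12 to 5 in the receptors and from 6 to 6 in the TRAFs. Over the 10 lists the receptors had 12, 9, 10, 12, 9, 10, 9, 9, 7 and 5. The count at 0 h was thus a maximum, and it varied without a steady fall up to 72 h. The ligands had 6 or 7 in each list and the TRAFs 5 or 6. In the cut lists the receptors went from 9 to 5, the ligands from 5 to 6 and the TRAFs from 6 to 6. Of the 12 receptor promoter peaks at 0 h, 5 (41.7%, 19.3 to 68.0%) were kept at 120 h, an interval below the 75.0% of all 0 h promoter peaks. At 96 h the receptors kept 6 of 12 (50%, 25.4 to 74.6%), where all promoter peaks kept 79.3%. All 6 ligand peaks (61.0 to 100%) and all 7 TRAF peaks (64.6 to 100%) were kept at 120 h. The ligand and receptor intervals overlap, and no test between the groups was made.

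**Figure D2:**
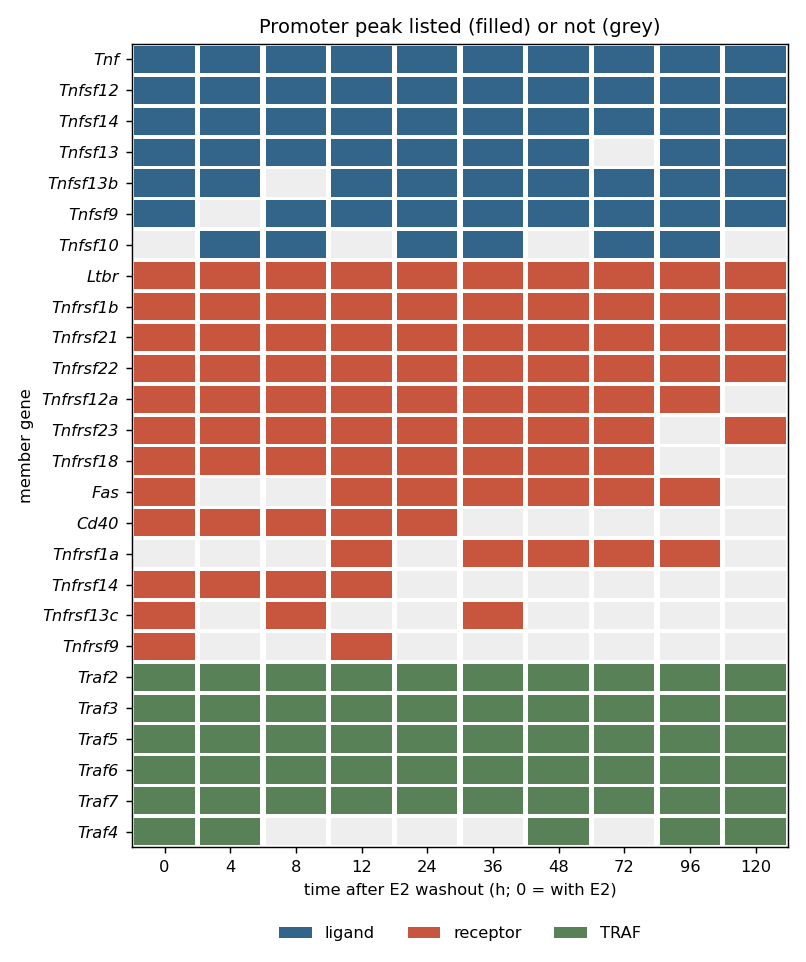
Rows are the 26 member genes with a promoter peak in any list, ordered by role (ligands blue, receptors red, TRAFs green) and by number of lists; columns are hours after E2 washout. A filled cell is a listed promoter peak. The receptor rows have gaps, with 12 genes filled at 0 h, 9 to 12 up to 72 h, 7 at 96 h and 5 at 120 h. At both ends 6 ligand and 6 TRAF genes are filled.

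**Figure D3:**
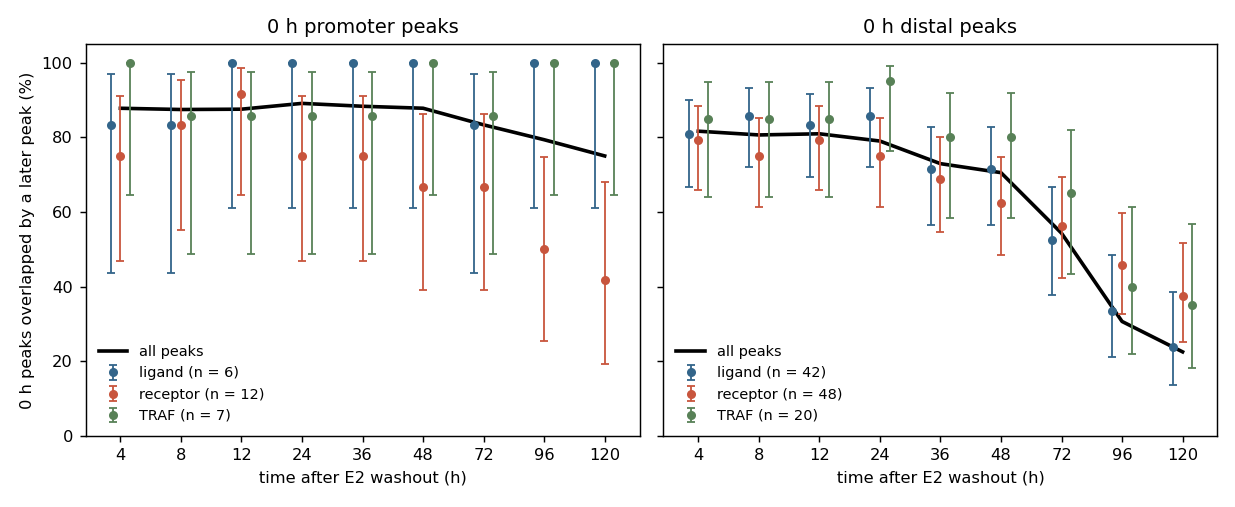
Share (%) of the 0 h promoter peaks (left) and distal peaks (right) overlapped by a peak of each later list, by hours after E2 washout. Points are ligand, receptor and TRAF genes with 95% Wilson intervals, and the black line is all peaks. Receptor promoters reach 41.7% at 120 h where all promoters are at 75.0%. The 3 distal points lie above the line at 96 and 120 h, but the ligand and TRAF intervals reach across it.

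Among the ligands, Tnf, the founding cytokine of the family, kept its promoter peak throughout, and the peak became wider in the late lists. The promoter region was chr17:35201685-35202381. The peak was 414, 502, 471, 479, 486, 311, 455, 651, 638 and 689 bp wide in the 10 lists. The 3 late widths, from 72 h on, were all above the 7 earlier ones. The change was on the side of the gene. The peak reached 104 to 135 bp past the TSS from 0 h to 48 h, and 286, 265 and 322 bp past it at 72, 96 and 120 h, while its upstream edge lay 206 to 374 bp before the TSS in the 10 lists. The mean width at 72, 96 and 120 h was 1.43 times that at 0, 4 and 8 h, a larger ratio than in 98.2% of the 5276 constant promoter regions, whose median ratio was 0.954. This feature was singled out after its values were seen, and peak width is not a measure of signal height. The intron region of Tnf at chr17:35200399-35201009 was also constant. Its width was 403 to 440 bp up to 48 h and 584, 498 and 500 bp at 72, 96 and 120 h, again higher in the late lists, with a ratio of 1.27 that exceeded 89.7% of the 6902 constant distal regions. A further 234 bp peak in intron 1, at chr17:35201065-35201298, was listed at 72 h only.

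**Figure D4:**
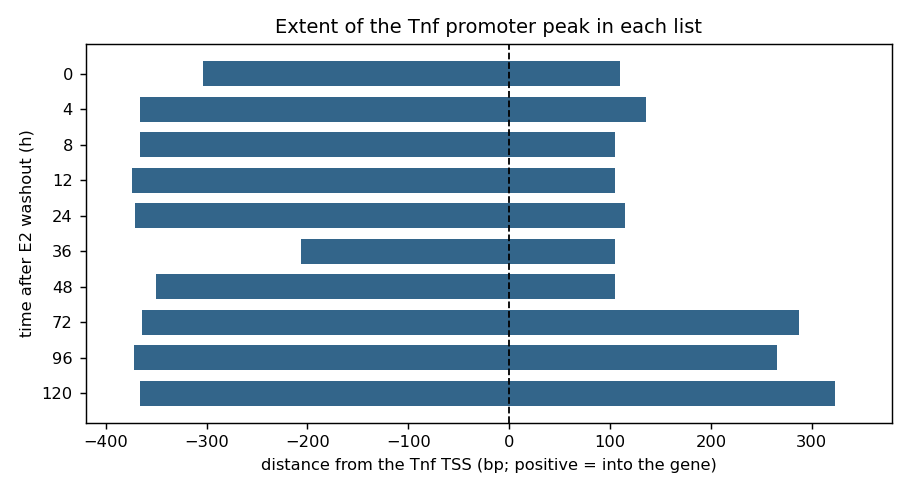
Horizontal bars give the extent of the Tnf promoter peak in each list, in bp from the TSS (dashed line; positive values lie in the gene), with hours after E2 washout on the vertical axis. The edge on the gene side moves from 104 to 135 bp up to 48 h to between 265 and 322 bp from 72 h.

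The genes beside Tnf, Lta and Ltb, encode lymphotoxin alpha and beta, which together bind the lymphotoxin beta receptor Ltbr. Their 6 regions with Tnf spanned 26.3 kb of chromosome 17, and the locus held 4 peaks at 0 h and 4 at 120 h. Ltb had no promoter peak in any list. Its only region, chr17:35192911-35193294, lies 1411 bp before its TSS and counted as gained. It was 346 and 366 bp wide at 12 and 24 h, was not listed at 36 and 48 h, and was 253, 269 and 262 bp wide at 72, 96 and 120 h. Lta kept a constant region 4895 bp upstream, 584 to 883 bp wide, and lost one 13550 bp upstream that was last listed at 12 h. The RefSeq window of Ltb, whose TSS lay in no listed peak, held the NF-kB consensus 87 to 78 bases before the TSS. The gained region lies outside this window. The consensus also stood in windows of Tnfrsf8, Tnfrsf9, Tnfrsf25 and Traf3, genes without a gained region.

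Tnfsf13b and Tnfsf14 were the other ligand genes with a gained region. Tnfsf13b encodes BAFF, a survival factor for B cells that myeloid cells make. Its gained region, chr8:10012925-10013559 in intron 2, was 245 and 351 bp wide at 24 and 36 h, was not listed at 48 h, and was 509, 590 and 596 bp wide in the last 3 lists. Its promoter region, chr8:10006227-10007159, was listed at all times but 8 h, with widths of 612 to 881 bp. A region 1341 bp upstream, listed at 0 h and last at 36 h, was not listed in the late lists. Tnfsf14 encodes LIGHT, a ligand of Tnfrsf14 and Ltbr. Its gained region, chr17:57198184-57198676, lies 4244 bp upstream and was listed without a gap from 24 h, with widths of 318, 377, 368, 483, 430 and 441 bp. The gene lost 2 regions, 13610 bp downstream and 10133 bp upstream of its TSS. Its constant promoter peak narrowed from 980, 1125 and 1104 bp in the first 3 lists to 944, 704 and 664 bp in the last 3, a ratio of 0.720 that was lower in only 2.88% of the constant promoter regions.

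Tnfsf13 (APRIL), Tnfsf12 (TWEAK) and Tnfsf9 (4-1BB ligand) kept promoter peaks. The Tnfsf13 region chr11:69685087-69686162 was listed at all times but 72 h. It measured 794, 773 and 932 bp in the first 3 lists against 588 and 383 bp at 96 and 120 h. The 588 bp are the summed width of 2 peaks. The RefSeq TSS of Tnfsf13 lay in a peak in 6 lists, and in none from 36 h to 96 h. The Tnfsf9 region chr17:57104962-57106035 was listed at all times but 4 h, at 657 to 925 bp. The Tnfsf12 promoter was listed at all 10 times, at 547 to 706 bp. Gaps of 1 or more lists, after which the peak came back, stood in 10 of the 29 member promoter regions (34.5%, 19.9 to 52.7%) and in 37.5% of all promoter regions.

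Tnfsf10, the ligand TRAIL that signals through death receptors, was patchy at its promoter and stable far upstream. Its promoter region, chr3:27316645-27317902, was listed at 4, 8, 24, 36, 72 and 96 h, with widths of 1232, 731, 742, 715, 735 and 442 bp. Constant regions lay 58389, 46645 and 25691 bp upstream. The one at 46645 bp, chr3:27269925-27270956, was among the 3 widest constant distal member regions, at up to 1007 bp, and measured 553 bp at 120 h. The gene's peak count went 8, 9, 8, 7, 8, 7, 6, 7, 5 and 3 over the lists.

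Of the 16 ligand genes, 9 had no promoter peak assigned to them in any list, Lta and Ltb among them. Another of these, Fasl, the ligand of Fas, had 11 regions and peak counts of 8, 9, 11, 11, 11, 9, 7, 8, 2 and 2. The drop fell between 72 and 96 h, and none of its regions was constant. Tnfsf11 (RANKL), which drives osteoclast formation, also had 11 regions, with counts of 7, 6, 7, 7, 8, 7, 9, 4, 4 and 2. A region 44952 bp upstream of it, 534 to 655 bp wide, was constant. The Tnfsf8 and Tnfsf15 locus, spanning 180 kb of chromosome 4, held 7 peaks at 0 h and then 4, 3 and 0 in the last 3 lists. The 1 transient ligand region lay there, at chr4:63942917-63943182, 81765 bp from the TSS of Tnfsf8 (CD30 ligand). Tnfsf4 (OX40 ligand) went from 3 peaks to 0, while Tnfsf18 (GITR ligand) kept 1 constant region 12259 bp upstream. The peaks assigned to Tnfsfm13 went from 1 to 0. Its RefSeq TSS nevertheless lay in a peak in all 10 lists, the promoter peak that is assigned to Tnfsf12. Tnfsfm13 thus counts among the 9 genes only through the naming of the nearest gene.

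Among the receptors, the genes of the 2 TNF receptors had different courses. Tnfrsf1b encodes TNFR2, which lacks a death domain and binds TRAF2. It had 16 regions, the highest number of any member, and 7 of them were constant. Its peaks numbered 12, 12, 11, 10, 12, 10, 10, 11, 9 and 9 in the 10 lists. The promoter region, chr4:145246119-145247256, was 1006 to 1106 bp wide throughout. The constant distal regions lay 5780 bp inside the gene and 7737, 11165, 14769, 20854 and 29913 bp upstream, the last 2 within the body of Tnfrsf8. A gained region, chr4:145269984-145270666, lay 23462 bp upstream, in intron 12 of Tnfrsf8. Its widths were 366, 411, 442, 586, 643 and 668 bp from 24 h to 120 h, so each list had it wider than the list before. A region nearby, 19858 bp upstream of the TSS, had the opposite course. Its widths were 667, 514, 417, 544 and 272 bp from 0 h to 24 h, and it was not listed afterwards. Between them the constant region at 20854 bp stayed, at 551 to 991 bp. A transient region, chr4:145260089-145260536, was listed from 24 h to 72 h at 252, 425, 438 and 443 bp. With Tnfrsf8 (CD30), the locus held 24 regions over 102 kb, of which 9 were constant, and its peaks went from 19 at 0 h to 11 at 120 h. Tnfrsf8 itself had no promoter peak and went from 7 peaks to 2.

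**Figure D5:**
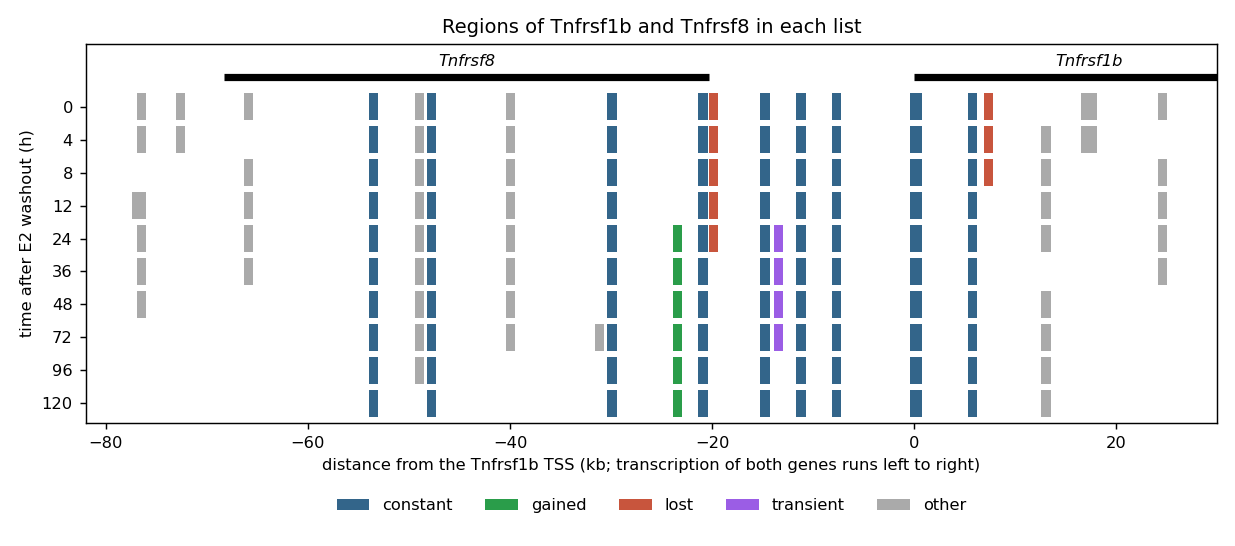
Peaks of Tnfrsf1b and Tnfrsf8 in each list, by distance from the Tnfrsf1b TSS in kb (horizontal) and hours after E2 washout (vertical), coloured by region class, with the gene bodies in black; regions narrower than 0.9 kb are drawn 0.9 kb wide so that they can be seen. Blue columns run through all 10 lists, the green column (gained) starts at 24 h and the red column beside it (lost) ends there.

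Tnfrsf1a encodes TNFR1, the death domain receptor of TNF. It was one of 2 member genes with more peaks at 120 h than at 0 h, with counts of 2, 3, 3, 5, 4, 4, 5, 5, 4 and 4. Its promoter region, chr6:125349206-125350375, was listed at 12, 36, 48, 72 and 96 h, with widths of 931, 820, 552, 946 and 996 bp. It was listed at none of 0, 4, 8, 24 and 120 h, so it was absent from the first 3 lists and mixed in the last 3. A region 4046 bp upstream, at the 3′ end of a neighbouring gene, widened in the late lists. It was listed at 4 h and from 12 h on, at 243 bp, then 266, 283, 283, 299 and 295 bp up to 72 h, and 741 and 791 bp at 96 and 120 h. A region 10550 bp inside the gene was listed at all times but 4 h, while its neighbour at 11230 bp was lost after 12 h.

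The 2 lost promoter regions lay at the deposited TSSs of Cd40 and Tnfrsf14. Cd40 is a TRAF-binding receptor of antigen-presenting cells. Its promoter region, chr2:165054818-165055956, was 883, 986, 830, 848 and 942 bp wide at 0, 4, 8, 12 and 24 h and was not listed from 36 h on. Its only other region was a 402 bp peak at 24 h. Tnfrsf14 (HVEM) is a receptor for LIGHT. The region at its promoter, chr4:154927551-154928291, was 709, 703, 739 and 701 bp wide up to 12 h and was not listed later. The gene still had 3 or 4 peaks in each of the lists, since constant regions lay 1464 and 16290 bp upstream, at 641 to 799 bp and 474 to 588 bp. These distances are from the deposited TSS at 154928077, while the RefSeq gene on this minus strand reaches 154928620. The nearer constant region starts at 154929081, closer to that outer edge. The loss thus concerns the deposited TSS alone, and a peak near the outer start of the gene stayed listed. A peak of 670 bp at 96 h and 683 bp at 120 h, 7152 bp upstream, was listed at no earlier time.

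More receptor promoters left the list late. Tnfrsf18 (GITR) had a promoter region, chr4:156025674-156026637, at 643 to 914 bp from 0 h to 72 h and not at 96 or 120 h. Its region 5720 bp downstream of the TSS, chr4:156031460-156032624, was constant at 807 to 1165 bp and was the widest constant distal member region. Tnfrsf12a (Fn14, the receptor for TWEAK) had a narrow promoter peak, chr17:23677284-23677679, of 310 to 374 bp up to 72 h, 243 bp at 96 h and none at 120 h. Fas, a death receptor, had a promoter region at chr19:34290327-34290954 that was 597 bp wide at 0 h, absent at 4 and 8 h, 249 to 515 bp from 12 h to 96 h, and absent at 120 h. The 3 late losses thus came from peaks of different width.

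Among the other receptor genes, Tnfrsf13c (BAFF receptor) had one at chr15:82224067-82225205 at 0, 8 and 36 h only, with widths of 802, 1139 and 540 bp. Tnfrsf9 (4-1BB) had one at chr4:150927809-150928129 at 0 and 12 h, of 321 and 277 bp. Tnfrsf9 also lost a region that had been 499 to 695 bp wide from 0 h to 48 h. It lay 3578 bp upstream of the deposited TSS, in an intron within the RefSeq gene body. Neither gene had a peak of any kind at 96 or 120 h. Among B cell marker genes outside the family, 2 of 5 had a promoter peak at 0 h and 0 of 5 at 120 h, and their part in these values was not tested. Tnfrsf13b (TACI) had no promoter peak and 8 distal regions. Cd27, Ngfr, Tnfrsf10b, Tnfrsf17, Tnfrsf19 and Tnfrsf25 had no promoter peak in any list and no peak at 120 h.

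The promoters of Ltbr, Tnfrsf21 and Tnfrsf22 were constant. Ltbr had a single region, at its promoter, with widths of 853 to 1133 bp in the 10 lists. Tnfrsf21 (DR6) had 9 regions and peak counts of 4, 4, 5, 7, 7, 7, 7, 4, 4 and 4, so it had most peaks from 12 h to 48 h. The wide promoter peak of Tnfrsf21 measured 1551, 1641 and 1553 bp in the first 3 lists and 1483, 1026 and 1012 bp in the last 3. Its transient regions were chr17:42987766-42988034, 28655 bp upstream, and chr17:43032392-43032848, in intron 1. Tnfrsf22 and Tnfrsf23 are neighbouring mouse decoy receptors for TRAIL. The Tnfrsf22 promoter was constant, as was a region 17325 bp upstream, chr7:143666455-143667523, that reached 1069 bp. The Tnfrsf23 promoter region chr7:143685606-143686075 was listed at all times but 96 h. A second one, chr7:143686170-143686840, was listed from 4 h to 72 h at 231 to 671 bp and not afterwards. A transient region of Tnfrsf23, chr7:143696081-143696510, was 253 to 427 bp wide between 8 h and 72 h.

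Tnfrsf11a (RANK) had no promoter peak and its peaks numbered 2, 2, 2, 4, 6, 1, 2, 1, 2 and 1. The maximum at 24 h included a transient region, chr1:105768440-105768805, at 12, 24 and 48 h, and 2 intron peaks listed at 24 h alone. A constant region lay 6525 bp inside the gene. The last transient receptor region, chr14:60916661-60917066, is assigned to Tnfrsf19 from 121124 bp away, at 24, 36 and 48 h.

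The TRAF genes, which encode the adaptors that link the receptors to ubiquitin and kinase signalling, had the highest share of constant promoters of the 3 roles. This share rests on 5 of 6 genes (83.3%, 43.6 to 97.0%). Its interval overlaps those of the ligands (15.8 to 75.0%) and the receptors (12.7 to 57.6%). Over promoter and distal regions together, 11 of the 32 TRAF regions were constant (34.4%, 20.4 to 51.7%), an interval above the 13.8% of all regions. Of these 11 regions, 5 were at promoters. Traf2 had a single region, at its promoter, with widths of 695 to 788 bp in the 10 lists. Traf6 kept its promoter peak at 872 to 1022 bp and lost distal peaks, with counts of 5, 4, 5, 4, 5, 4, 4, 4, 2 and 2. Traf7 kept its promoter peak at 690 to 918 bp and had a transient region in the gene, chr17:24513662-24514133, from 24 h to 72 h.

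Traf3, a brake on alternative NF-kB signalling, and Traf5 had fewer distal peaks late in the course around constant promoters. Traf3 had 7, 7, 5, 8, 7, 7, 7, 7, 4 and 3 peaks. Its promoter peak was 768 to 1269 bp wide up to 72 h and 1317 and 1118 bp at 96 and 120 h. A region 16528 bp upstream of Traf3 was listed from 12 h, at 950, 777, 733, 725, 632 and 414 bp, and no longer at 120 h. It lay beside another, 17375 bp upstream, that was listed at 0 and 4 h only. Traf5 had 6, 5, 6, 6, 7, 6, 6, 4, 2 and 2 peaks. Its intron region chr1:192070033-192071272, 1010 to 1240 bp wide from 0 h to 48 h, was the widest lost member region and was not listed from 72 h on. The constant promoter region of Traf5 held 2 peaks in each list up to 72 h, with a summed width of 1001 to 1139 bp. At 96 and 120 h it held 1 peak, of 1105 and 955 bp. Part of the fall in the Traf5 count thus lies within a region that stayed listed.

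Traf1, which NF-kB is known to induce, had no promoter peak in any list and 7 regions, of which 2 were constant and 1 was lost. Its peaks numbered 5, 5, 6, 6, 6, 5, 6, 4, 4 and 3. Traf4 was the TRAF gene with a broken promoter course. Its promoter region, chr11:78164895-78166121, was listed at 0, 4, 48, 96 and 120 h, at 1092, 1181, 674, 1178 and 1059 bp. Among regions whose listed peaks were all at least 500 bp wide, 10 of 49 member regions (20.4%, 11.5 to 33.6%) went off the list and came back, against 30.4% of all such regions, so gaps were not limited to narrow peaks.

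By gene, 28 of the 45 members had fewer peaks at 120 h than at 0 h, 15 had as many and 2 had more (Tnfrsf1a, and Ltb with 0 and 1). In percent, 62.2% had fewer and 4.44% more, against 65.5% and 7.17% of all 19738 genes with a peak. In lists cut to their widest peaks, 14 members had fewer and 13 more (31.1% and 28.9%), against 25.1% and 23.8% of all genes. Of the 204 regions, 84 overlapped the body of their own gene, 5 that of another member only and 16 that of other coding genes only, and 99 overlapped none. In these last 2 kinds the nearest gene may not be the gene concerned.

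The rest of the pathway was given by 44 genes of death signalling, kinases, ubiquitin editing and NF-kB, and by family members with other names. Peaks were found for 42 of them, 169 at 0 h and 99 at 120 h (58.6%). From 0 h to 120 h, 4 of the 44 genes had more peaks (9.09%), 31 fewer (70.5%) and 9 as many. The 9 include Rnf31 and Eda, which had no peak in any list. Over all genes with a peak, 7.17% had more and 65.5% fewer, so the bases of these shares differ slightly. Of their 299 regions, 10 were gained (3.34%, 1.83 to 6.05%), against 2.38% of all regions. Lost regions were 35 (11.7%), against 12.5%, and transient ones 33 (11.0%), against 9.65%. Constant regions were 53 (17.7%, 13.8 to 22.5%), against 13.8%. Promoter peaks stood in 31 genes at 0 h and 32 at 120 h. The 10 NF-kB and IkB genes had 44, 54, 40 and 31 peaks at 0, 72, 96 and 120 h.

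Tank, which encodes a TRAF-binding partner of the kinase Tbk1, held 4 of the 10 gained regions. Its peaks numbered 7, 9, 7, 7, 14, 17, 14, 14, 12 and 9, with the highest count at 36 h. Nfkbia encodes the inhibitor IkB alpha, itself an NF-kB target. It had 5 peaks at 0 h, 10 to 13 from 4 h to 72 h, and 8 and 6 at 96 and 120 h, and 1 region was gained. Tnfaip3, the ubiquitin-editing brake A20, gained 1 region and had 9 peaks in the first list and 8 in the last. Cflar, the caspase 8 inhibitor, Map3k5, Rel and Nfkbiz had 1 gained region each.

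Other pathway genes lost peaks. Tab2, an adaptor of the kinase Map3k7, went from 19 peaks to 6 and had 4 lost regions. Map3k7 (TAK1) went from 9 to 2, also with 4 lost regions. Nfkbiz went from 15 to 9, Otulin from 6 to 1, Casp8 from 6 to 2, Nfkb1 from 7 to 3, Tnip1 from 7 to 4 and Birc3 from 3 to 1. Cflar had 3 promoter peaks at 0 h, 5 at 4 and 8 h and none at 96 and 120 h.

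Marker genes were read from the same lists beside the label. Of 12 myeloid progenitor and neutrophil genes, 7 had a promoter peak at 0 h and 7 at 120 h. These were not the same genes. Of these times, Mpo, Ctsg and Lyz2 had one at 0 h only, and Cebpe, Ltf and Ngp at 120 h only. Of the primary granule genes, Mpo and Ctsg had one up to 72 h, while Elane and Prtn3 had none in any list. Of the secondary granule genes, Ngp had one from 24 h on, Ltf at 8, 96 and 120 h, and Camp at all times but 24 h. Of 6 T cell genes none had a promoter peak at 0 h or 120 h. Erythroid genes had 1 of 5 and 0 of 5, and stromal and endothelial genes 3 of 5 and 1 of 5. Since genes of other cell types also had promoter peaks at 0 h, these counts do not settle the label. Read depth per sample is not given in these lists, and the shrinking of the lists from 72 h on cannot be told apart from a change in the depth or quality of those libraries.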

How the data were processed

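Per the labels' protocols, nuclei were transposed with Tn5 and 20 libraries were made. Per the file headers, the deposited peaks were annotated with HOMER's annotatePeaks.pl on mm10. The submitters' processing notes name BWA, MACS2 2.0, STAR 2.5 and mm9 without a role. The coordinates were used as mm10, since the Tnf promoter peak spans the Tnf start of RefSeq GRCm38.p6 in all 10 lists. How reads were filtered, shifted or pooled over the 2 samples of a time was not given in the sources used here. The deposited score column is 0 for each peak, so it ranks nothing. Starts, ends and distances to the TSS, as deposited, were the values used.

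Python 3.11.15 with pandas 2.3.3 and numpy 2.4.6 was used. Peaks of the 10 lists that overlapped by at least 1 bp were chained into regions, and 49 peaks with no gene name were left out of gene counts, a region took the gene of its widest peak, which moved 2 regions with a member peak to another gene. Where a region held more than 1 peak in a list, its width there is the summed width of those peaks. Wilson intervals (95%) came from statsmodels 0.14.6, and figures from matplotlib 3.10.9. The calls were tested on 5000 simulated regions and all came out right. Sequences are RefSeq promoter windows (40 member genes matched, 44 windows).

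The members, gene lists and class definitions were chosen with earlier results of these data known. Full courses are given for Tnf, Tnfrsf1a, Tnfrsf1b, Fas, Ltbr, Cd40, Traf1 to Traf6, members with a gained region, the 5 with most lost and the 5 with most regions, and members whose promoter state differed between the first 3 and last 3 lists. Pathway genes are named for the 8 largest changes or a gained region; the eighth place was a tie of 10 genes that changed by 2 peaks, taken by symbol.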

Additional observations from a re-analysis of the deposited data

How the results depend on the processing

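No paired analysis was possible because each time has 1 peak list for both of its samples, and for the same reason no replicate could be left out. Over 6 alternatives, 71 values of 17 results were recomputed; 58 stayed within 1.5 times the reported count or within the reported interval. Those on the share of receptor promoters and of constant distal regions were added after the data were seen. Cutting each list to its 23620 widest peaks left 61 member peaks at 0 h and 64 at 120 h, so the order of these times turned, with 9 lost and 2 transient regions. The 0 h peaks kept at 120 h then came to 60.7% of members (53.2% of all peaks). Among distal peaks, 53.7% of members and 35.4% of all were kept. By role the values were 52.9% for ligands, 56.3% for receptors and 83.3% for TRAFs. The 120 h list was not shortened by this cut, while the 0 h list kept only peaks of at least 522 bp. The higher shares thus describe the wider 0 h peaks. In these cut lists receptor promoters kept 44.4%, against 84.0% of all promoters, and 17.2% of member distal regions were constant, against 7.13% of all. Without the 120 h list, 7 regions were gained, and with 2 early and 2 late lists 48 were lost. The widths and counts of single genes were not recomputed. A peak near the calling threshold can drop out of 1 list, and no height was given by which to tell this.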
